A study of Mus musculus with 23 samples.

Results

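The mucin genes Muc1, Muc2, Muc4, Muc5ac, Muc5b, Muc6, Muc13, Muc15, Muc16 and Muc20 were followed across sorted medullary thymic epithelial cells (mTECs) of mice with and without Aire. They were taken by gene symbol, and make up 10 of the 53402 gene identifiers in the count table. All 10 were protein coding and all 10 passed the filter on low counts. The cells came from the thymus of C57BL/6 mice, were sorted as live EpCAM-positive cells lacking CD45 and the cortical antigen Ly51, and were separated by MHC class II into a high (mTEChi) and a low (mTEClo) gate. Wild-type (WT) mice gave 8 mTEClo libraries (5 male and 3 female, 5 of them from mice aged 4 weeks and 3 from mice aged 5 weeks) and 7 mTEChi libraries (5 male and 2 female, 2 of them from mice aged 4 weeks and 5 from mice aged 5 weeks). Aire knockout (KO) mice gave 4 libraries per gate, all male, 2 at 5 weeks and 2 at 6 weeks. Genotypes are given only as WT and Aire KO, without the allele. The libraries are not labelled as separate animals, so p-values measure only the spread between these libraries, which may be technical.

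Mucins are long glycoproteins whose protein backbone carries dense sugar chains attached to serine and threonine residues, most of them within tandemly repeated stretches. The gel-forming mucins followed here (Muc2 of intestinal goblet cells, Muc5ac of the stomach surface and airways, Muc5b of salivary and airway glands, Muc6 of stomach glands) are secreted, polymerise and make mucus. The membrane-bound ones (Muc1, Muc4, Muc13, Muc15, Muc16 and Muc20) coat the apical cell surface and some of them signal. In the thymic medulla, mTECs transcribe genes of peripheral tissues and display the products for T cell selection, and many such genes need the transcriptional regulator Aire.

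Tandem repeats of Muc13, Muc4 and Muc5ac are shown here because such repeats carry sugar attachment sites of mucins. Reads inside a repeat also cannot be placed on 1 copy of it. In GENCODE vM21 transcripts (GRCm38), the longest tandem region found in Muc13 was 608 bases with a repeat unit of 81 bases and made up 35.4% of its coding sequence. The region of Muc4 was 1672 bases with a unit of 372 bases, and that of Muc5ac was 1382 bases with a unit of 576 bases. The first unit of Muc13 and the first 120 bases of the first unit of the other two follow, with capitals at codons for serine or threonine in the standard code. Such codons were 16 of 27 in Muc13, 21 of 40 in Muc4 and 19 of 40 in Muc5ac. Their share over whole coding sequences was not measured. In the same search Muc20 had a region of 132 bases, and none was found in Muc1, Muc2, Muc5b, Muc6, Muc15 or Muc16.
Muc13, from base 40 of the coding sequence: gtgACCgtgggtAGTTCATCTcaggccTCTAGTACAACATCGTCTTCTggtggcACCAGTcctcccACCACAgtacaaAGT
Muc4, from base 1585 of the coding sequence: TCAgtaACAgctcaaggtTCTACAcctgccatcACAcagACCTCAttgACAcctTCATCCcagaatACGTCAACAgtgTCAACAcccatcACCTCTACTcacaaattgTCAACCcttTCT
Muc5ac, from base 5581 of the coding sequence: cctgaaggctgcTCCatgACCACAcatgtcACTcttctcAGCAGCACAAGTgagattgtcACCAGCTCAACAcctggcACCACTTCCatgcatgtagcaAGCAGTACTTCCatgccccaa
Stretches of 50 bases that occurred more than once within the same transcript were 23.2% of Muc5ac, 21.9% of Muc5b, 14.2% of Muc13, 12.7% of Muc6, 10.1% of Muc4, 2.06% of Muc16 and 1.28% of Muc1, and none were found in Muc15 or Muc20. The Muc2 transcript searched is a fragment of 2926 bases whose coding sequence is not a whole number of codons, so the 0% found there says nothing of repeats in the full gene. How the counting treated reads in those stretches is not given in the sources used here, so levels are compared between genes with that limit.

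Library totals ranged from 1602125 to 3938588 counts. The 6 libraries under 2000000 counts were replicates 1 and 2 of WT mTEClo, KO mTEClo and WT mTEChi, and a term for this depth class was called for 0 of the 10 mucin genes and for 1.51% of all 19310 genes tested. Levels are given in CPM, counts scaled to 1000000 per library as in the fit, and 3 counts over a group, the limit for a gene at 0, corresponded to 0.299 CPM in KO mTEChi, 0.161 in WT mTEChi, 0.275 in KO mTEClo and 0.122 in WT mTEClo. Aire stood at 753 to 921 CPM in WT mTEChi and 17.1 to 39.3 CPM in KO mTEChi, and at 19.6 to 128 CPM in WT mTEClo and 0 to 7.58 CPM in KO mTEClo. The epithelial marker Epcam lay between 202 and 324 CPM in all 23 libraries. It belongs to a list of 14 thymic epithelial markers that did not all stay even. In KO mTEChi 2 of the 14 were called lower (Krt5 and Cd80) and 3 higher (Cldn3, Cldn4 and Foxn1), against 28% and 25.7% of all tested genes. In KO mTEClo 0 were lower and 2 higher (Foxn1 and Psmb11), against 9.69% and 12%. Enpep, which encodes the sorted-out antigen Ly51, was at 35.9 to 61.2 CPM in WT mTEChi but at 1.23 to 5.13 CPM in KO mTEChi. Ptprc, which encodes CD45, was at 9.64 to 35.9 CPM in WT mTEChi and 5.43 to 6.96 CPM in KO mTEChi.

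The comparison of KO with WT in the mTEChi gate asks how mucin genes stand without Aire in the gate where Aire is highest. In KO mTEChi, 8 of the 10 mucin genes were lower and 0 were higher at an adjusted p under 0.05, against 28% of all tested genes lower and 25.7% higher. All 4 gel-forming mucins among the 10 fell, and among the membrane-bound ones Muc13, Muc15, Muc16 and Muc20 fell while Muc1 and Muc4 did not pass. The median log2 change of the 10 genes was -3.72, also with Muc16 set to its bound, beside -0.01 for all tested genes. For 7 of the 10 the KO libraries were all lower than the lowest WT library, which held for 19.8% of all tested genes, and for 0 they were all higher (18.2%). In bulk libraries, fewer cells of a type and less RNA per cell cannot be told apart. With library totals only as scaling, 65.4% of all called genes were lower in KO, against 52.1% here, and the median of all genes moved to -0.17, but the 8 mucin genes were still called lower.

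Muc2, the mucin of intestinal goblet cells (ENSMUSG00000025515, chromosome 7, 141690340 to 141754693 of GRCm38, plus strand), had a lowest, median and highest level of 86.4, 119 and 140.3 CPM in the 7 WT mTEChi libraries. In KO mTEChi it was at 0, 0, 0.342 and 0 CPM, a single count in replicate 3. The groups were far apart, with 2159 counts over the WT libraries and 1 over the KO libraries, and the ratio of the scaled counts was 1164-fold (exact 95% interval 209 to 45982, counting error only; adjusted p = 6.2e-05). Muc5ac, the mucin of the stomach surface (ENSMUSG00000037974, chromosome 7, 141788972 to 141819231, plus strand), had a lowest, median and highest level of 245, 321 and 419 CPM in WT, and was at 4.39, 2.86, 1.37 and 2.92 CPM in KO. The lowest WT library was well above the highest KO library, and the log2 change was -7.07 ± 1.00 (SE, adjusted p = 9.5e-06).

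Muc6, the mucin of stomach glands (ENSMUSG00000048191, chromosome 7, 141633456 to 141655319, minus strand), ran from 59.5 over a median of 78.2 to 139 CPM in WT mTEChi. KO mTEChi libraries held 3.07, 2.46, 6.16 and 4.18 CPM of it. All KO libraries kept some Muc6, unlike Muc2, and the log2 change was -4.47 ± 0.26 (adjusted p = 2.0e-13). Muc5b, the mucin of salivary and airway glands (ENSMUSG00000066108, chromosome 7, 141839070 to 141873084, plus strand), had a lowest, median and highest level of 35.6, 49.8 and 92.4 CPM in WT. Its KO mTEChi levels were 4.39, 3.27, 2.05 and 2.09 CPM. WT and KO did not overlap for Muc5b, and its log2 change of -4.51 ± 1.15 (adjusted p = 0.0029) had a wider error than that of Muc6.

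**Figure D1:**
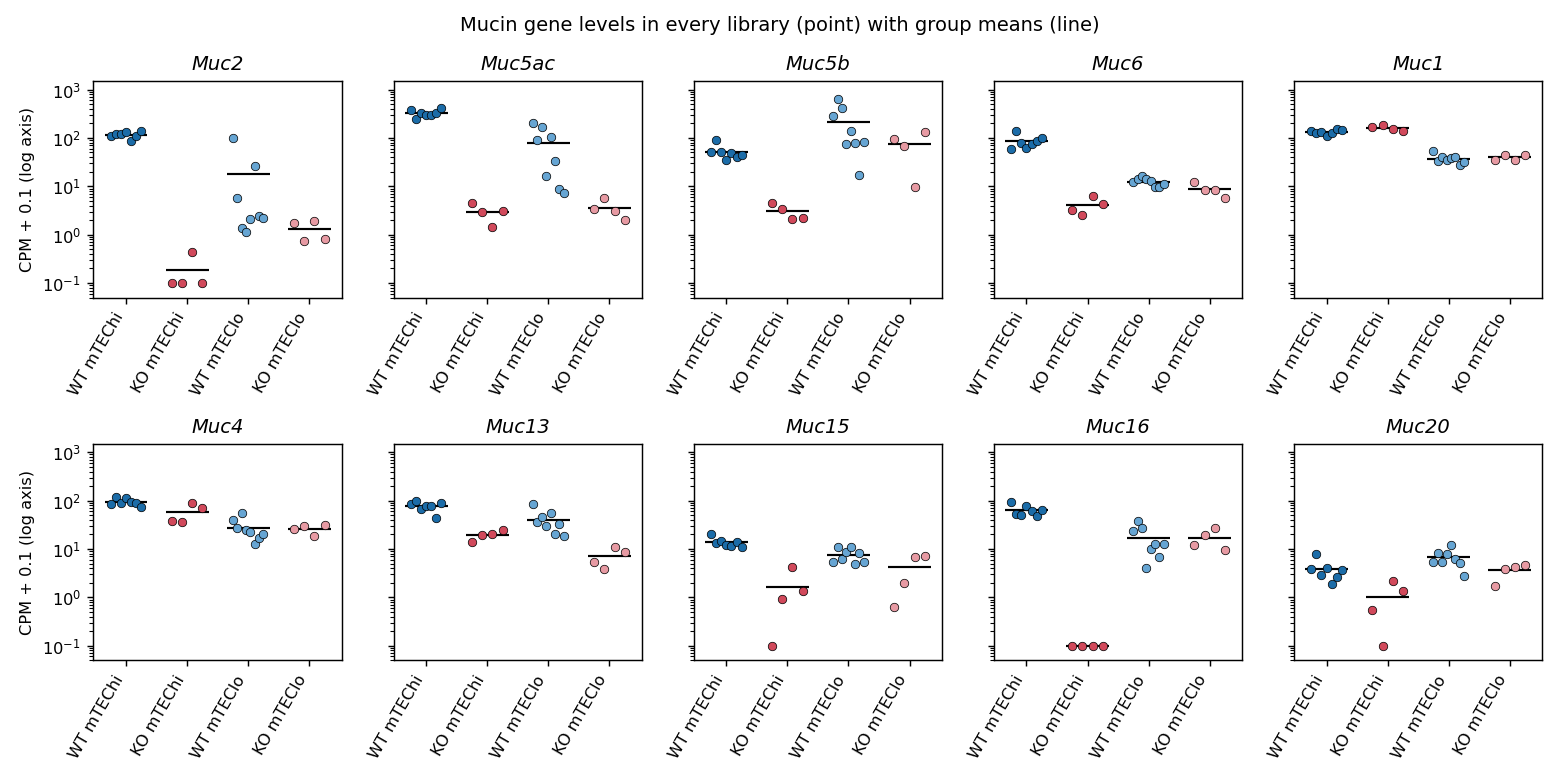
Level of each mucin gene in every library (points) with the group mean (line), on a log axis of CPM + 0.1, for WT and KO mTEChi and mTEClo. All 4 gel-forming mucins and Muc16 are lower in every KO mTEChi library than in any WT mTEChi library, Muc16 at 0 in all 4, whereas Muc1 spans 139 to 183 CPM there, and Muc2, Muc5ac and Muc5b are widely spread in WT mTEClo.

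Muc16, the large surface mucin that carries the CA125 epitope (ENSMUSG00000109564, chromosome 9, 18495455 to 18674530, minus strand), had a lowest, median and highest level of 47.4, 62.4 and 92.3 CPM in WT mTEChi. It was at 0 in all 4 KO mTEChi libraries, against 1170 counts over the WT libraries. Muc16 was therefore at least 214-fold lower in KO, with the limit of 3 counts taken over the group (adjusted p = 1.5e-06). Muc13, a membrane mucin of the gut epithelium (ENSMUSG00000022824, chromosome 16, 33794037 to 33819934, plus strand), lay at 44.5, 77.3 and 99.0 CPM (lowest, median and highest) in WT and at 13.6, 19.6, 19.9 and 24.2 CPM in KO. Every KO library still expressed Muc13, and the log2 change was -2.02 ± 0.36 (adjusted p = 6.8e-05). Muc15 (ENSMUSG00000050808, chromosome 2, 110721340 to 110739527, plus strand), a small membrane mucin, was at 10.7, 13.2 and 20.4 CPM in WT and 0, 0.818, 4.11 and 1.25 CPM in KO. Its groups did not overlap either, and the log2 change was -2.97 ± 0.48 (adjusted p = 9.9e-06).

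Muc20 (ENSMUSG00000035638, chromosome 16, 32777419 to 32797435, minus strand) had the fewest counts of the family in WT mTEChi, with 64 counts over the WT mTEChi libraries and 10 over the KO ones. Its WT levels were 1.80, 3.57 and 7.80 CPM (lowest, median and highest) and its KO levels 0.439, 0, 2.05 and 1.25 CPM. The highest KO library of Muc20 lay above the lowest WT library, and the log2 change was -1.81 ± 0.58 (adjusted p = 0.0096). Its 3′ part shares 4973 bases of chromosome 16 (32777419 to 32782391) with Muc4 on the other strand. The library method keeps no strand and 13.3% of the 50-base stretches of Muc20 also occur in Muc4, so reads of the pair cannot be told apart there and both counts are uncertain.

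Muc1, the most widely expressed membrane mucin and a signalling protein of epithelia (ENSMUSG00000042784, chromosome 3, 89229057 to 89233381, plus strand), was at 112, 134 and 155 CPM (lowest, median and highest) in WT mTEChi. KO mTEChi libraries were at 168, 183, 153 and 139 CPM. The ranges of Muc1 overlapped, and its log2 change of 0.18 ± 0.11 did not pass (adjusted p = 0.17). With age as a factor the change of Muc1 was 0.27 (adjusted p = 0.054), and in 5-week males only it was also 0.27. Muc4, a membrane mucin that binds the receptor ErbB2 (ENSMUSG00000079620, chromosome 16, 32735886 to 32782391, plus strand), was at 74.3, 89.1 and 118 CPM in WT and at 38.6, 36.0, 90.4 and 70.2 CPM in KO. The 2 libraries of 5-week KO mice held less Muc4 than any WT library and the 2 of 6-week mice lay near or within the WT range. Its log2 change of -0.74 ± 0.31 missed the threshold (adjusted p = 0.051) but passed under several alternatives, among them 5-week males only, with -1.17 (adjusted p = 1.6e-07, over alternatives 1.6e-07 to 0.18).

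**Figure D2:**
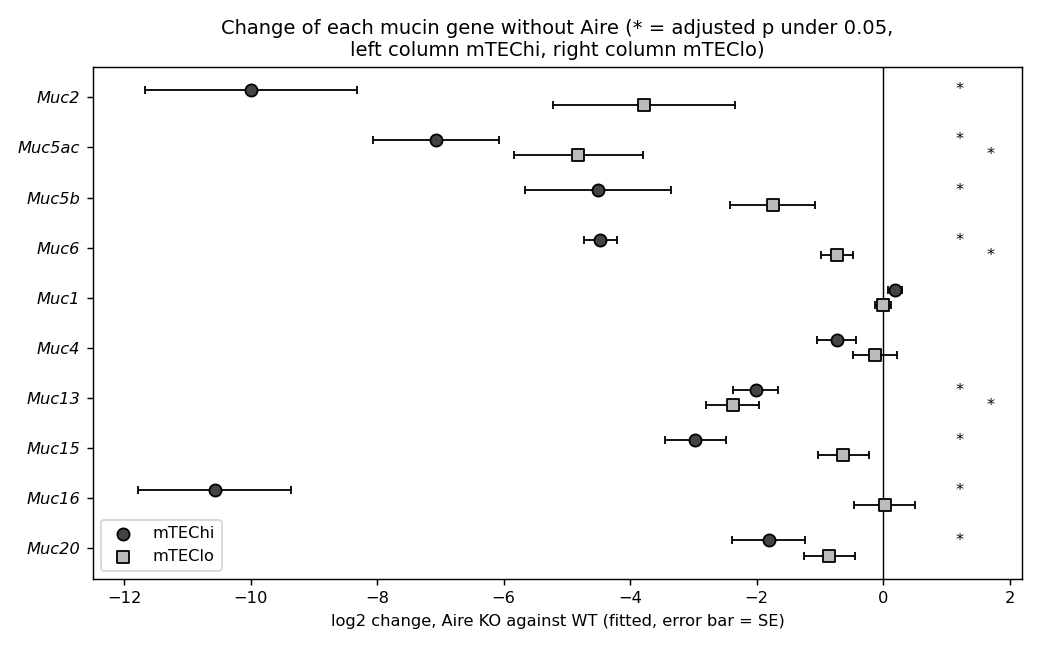
Fitted log2 change of each mucin gene in Aire KO against WT, with its SE, in mTEChi (circles) and mTEClo (squares), and an asterisk at an adjusted p under 0.05. In mTEChi 8 genes carry an asterisk and all of these are below 0, in mTEClo 3 genes do (Muc5ac, Muc6 and Muc13), and Muc16 has a change near 0 in mTEClo.

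The 4 gel-forming mucin genes lie side by side on chromosome 7, from 141633456 to 141873084, in a stretch of 239.6 kb. All 4 fell in KO mTEChi, and the genes next to the cluster on both sides did not pass. Ap2a2, a subunit of the clathrin adaptor, ends 0.445 kb from Muc6 and changed by 0.04 ± 0.10 on the log2 scale (adjusted p = 0.75). Tollip, an adaptor of Toll-like receptor signalling, starts 1.73 kb from Muc5b and changed by 0.11 ± 0.09 (adjusted p = 0.31). Of 13 tested protein-coding genes within 200 kb of the cluster, 2 were lower (Brsk2, -1.01 ± 0.27, and Pidd1, -0.67 ± 0.21). Of them 1 was higher (Pnpla2, 0.77 ± 0.10), and the remaining 10 did not pass, against 28% of all tested genes lower and 25.7% higher. Around the overlapping pair Muc4 and Muc20, 5 of 7 protein-coding neighbours within 200 kb were tested, of which 2 were lower (Tfrc, -0.67, and Fyttd1, -0.49) and 3 were higher (Lrch3, 1.66, Rubcn, 1.03, and Tnk2, 0.41). Changes in that neighbourhood thus went both ways, as calls over all tested genes did.

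**Figure D3:**
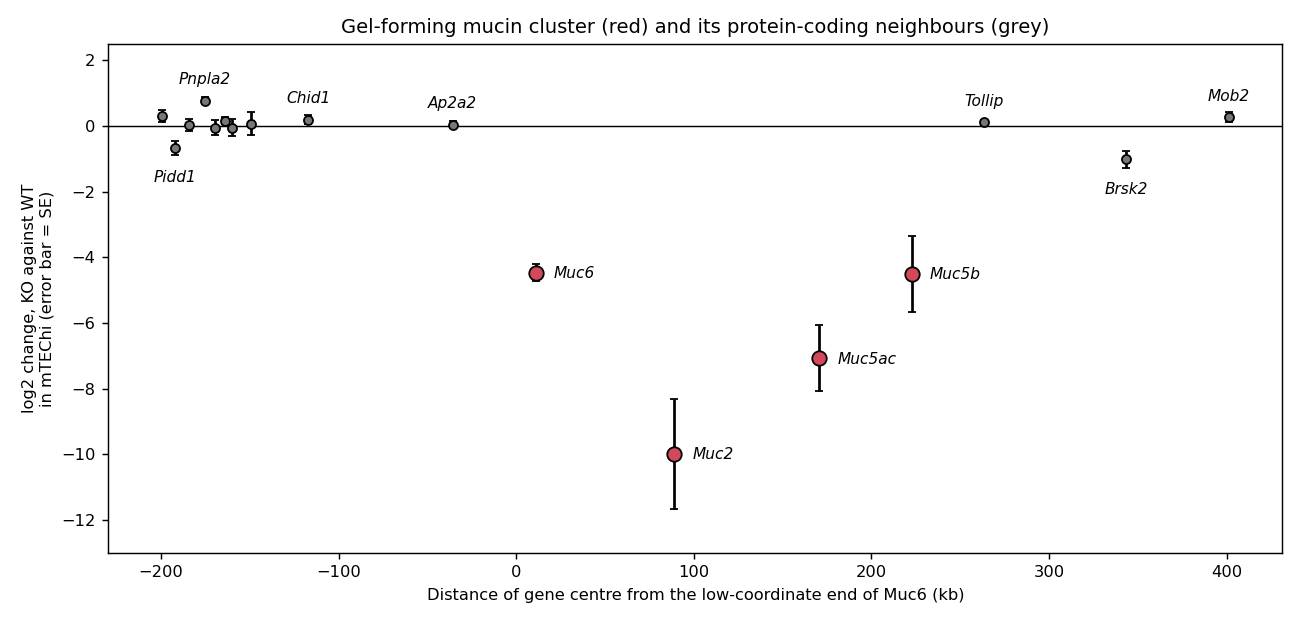
Log2 change with its SE in KO against WT mTEChi of the 4 gel-forming mucin genes (red) and the 13 tested protein-coding genes within 200 kb (grey), by distance from Muc6. The mucin genes lie between -4.47 and -9.99 while the neighbours lie between -1.01 and 0.77.

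Promoter windows of 250 bases before the annotated start (RefSeq, GRCm38.p6) were at hand for 7 of the 10 genes, and 4 of them are shown because these genes span the range from Muc1, whose change did not pass, to Muc16, with no remaining counts. The 120 bases before the start are given for each on its own strand, with capitals at matches, on either strand, to the TATA motif TATAAA, the GC box GGGCGG, the forkhead motif TGTTTAC, the GATA motif GATAAG and the E-box CACCTG, whose matches did not overlap.
Muc1, chr3:89228936-89229055, plus strand: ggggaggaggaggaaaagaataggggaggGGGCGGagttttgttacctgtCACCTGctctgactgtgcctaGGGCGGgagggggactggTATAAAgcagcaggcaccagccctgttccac
Muc2, chr7:141690220-141690339, plus strand: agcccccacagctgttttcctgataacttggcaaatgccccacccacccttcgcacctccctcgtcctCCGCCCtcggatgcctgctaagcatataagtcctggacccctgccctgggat
Muc6, chr7:141655394-141655513, minus strand: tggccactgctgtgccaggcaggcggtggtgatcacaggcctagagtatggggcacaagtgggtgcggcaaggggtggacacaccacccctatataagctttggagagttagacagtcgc
Muc16, chr9:18674604-18674723, minus strand: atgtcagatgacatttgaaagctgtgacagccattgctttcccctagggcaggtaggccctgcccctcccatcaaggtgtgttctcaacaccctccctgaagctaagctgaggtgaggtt
In 250 bases, Muc1 held the TATA motif, the GC box and the E-box, Muc2 the TATA motif and the GC box, Muc20 the E-box and the forkhead motif and Muc4 the TATA motif, while Muc6, Muc13 and Muc16 held none of the 5. Among the genes called lower there were thus both windows with and windows without an exact match. Over 32851 promoter windows of the same length, TATAAA was found in 12.4%, GGGCGG in 32.7%, TGTTTAC in 3.17%, GATAAG in 6.55% and CACCTG in 17.2%. The mucin windows held 0 to 5 CpG dinucleotides, beside a median of 6 over all windows. A match is a description of these letters and no evidence of binding.

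The same comparison in the mTEClo gate, where WT cells express far less Aire, called 3 of the 10 mucin genes lower and 0 higher, against 9.69% of all tested genes lower and 12% higher. Muc5ac had a lowest, median and highest level of 7.20, 63.0 and 202 CPM in the 8 WT mTEClo libraries and was at 3.25, 5.64, 2.98 and 1.94 CPM in KO. Muc5ac was lower in every KO library than in any WT library, with a log2 change of -4.82 ± 1.02 (adjusted p = 0.0023). Muc13 was at 18.6, 34.7 and 83.9 CPM in WT and at 5.41, 3.76, 10.7 and 8.499 CPM in KO. Its KO libraries were also all below WT, with a log2 change of -2.38 ± 0.42 (adjusted p = 3.2e-04). Muc5ac and Muc13 were the 2 mucin genes without overlap in this gate, both lower, against 5.79% of all tested genes lower and 5.86% higher without overlap.

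Muc6 differed little between genotypes in mTEClo, from a lowest, median and highest level of 9.40, 12.4 and 16.1 CPM in WT to 12.4, 8.14, 8.34 and 5.59 CPM in KO. Replicate 1 of KO mTEClo lay inside the WT range. The log2 change of Muc6 was -0.73 ± 0.25 (adjusted p = 0.038), and its call was lost with age as a factor (-0.50, adjusted p = 0.43), without a sex term (-0.60, adjusted p = 0.092) and in 7 fits that left out 1 library each, the largest adjusted p being 0.18 without KO mTEClo replicate 4, with an adjusted p of 0.0073 to 0.94 over the alternatives. Muc2 (-3.79 ± 1.44, adjusted p = 0.069) and Muc5b (-1.75 ± 0.68, adjusted p = 0.073) missed the threshold. Muc1, Muc4, Muc15, Muc16 and Muc20 did not pass either. Muc16 was at 3.93, 12.4 and 38.2 CPM (lowest, median and highest) in WT mTEClo and at 11.9, 19.4, 26.8 and 9.47 CPM in KO mTEClo. Its log2 change of 0.02 ± 0.48 (adjusted p = 0.98) thus left Muc16 expressed in every KO mTEClo library, although it was at 0 in every KO mTEChi library.

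Whether the KO effect differed between the gates was tested directly. It was more negative in mTEChi for Muc16 (difference of log2 changes -10.60 ± 1.46, adjusted p = 4.9e-05), Muc6 (-3.74 ± 0.38, adjusted p = 3.2e-08) and Muc15 (-2.34 ± 0.64, adjusted p = 0.0079), against 14% of all tested genes lower and 10.8% higher. The share of lower calls among all genes was 56.3% here and 77.8% with library totals only. In 5-week males alone Muc15 did not pass (-2.75, adjusted p = 0.16). The value for Muc16 rests on a group at 0 and is no measure of size. For the other 7 mucin genes the difference did not pass, including Muc13 (0.37 ± 0.54, adjusted p = 0.68) and Muc5ac (-2.25 ± 1.94, adjusted p = 0.44). Muc2 (-6.20 ± 4.09, adjusted p = 0.30, but -7.44 and 0.035 without WT mTEClo replicate 1) and Muc5b (-2.76 ± 1.41, adjusted p = 0.17) also had large errors.

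Several mucin genes were unevenly distributed over the WT mTEClo libraries, while they were even in WT mTEChi. Muc5b ran from 16.8 to 629.6 CPM over the 8 WT mTEClo libraries, a 37.5-fold range, but over a 2.59-fold range in WT mTEChi. Its values in replicate order were 284, 629.6, 410.0, 75.5, 137, 79.6, 16.8 and 82.7 CPM. Muc5ac was at 202, 92.2, 169.6, 16.5, 103, 33.9, 8.73 and 7.20 CPM, a 28.0-fold range, against 1.71-fold in WT mTEChi. The highest values of both genes were in replicates 1, 2, 3 and 5, all from mice aged 4 weeks, and the lowest in replicates 4, 6, 7 and 8, of which 4 is from 4 weeks and the others are from 5 weeks. Muc2 stood at 101 CPM in replicate 1 and 26.2 CPM in replicate 6, and between 1.05 and 5.72 CPM in the other 6 libraries. Muc1 and Muc6 were even in this gate, with ranges of 1.99-fold and 1.71-fold. Aire itself was at 82.1, 82.0, 34.9, 53.5, 19.6, 128, 80.3 and 73.2 CPM, with the highest value in replicate 6, while Muc5b was highest in replicate 2 and Muc5ac in replicate 1.

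**Figure D4:**
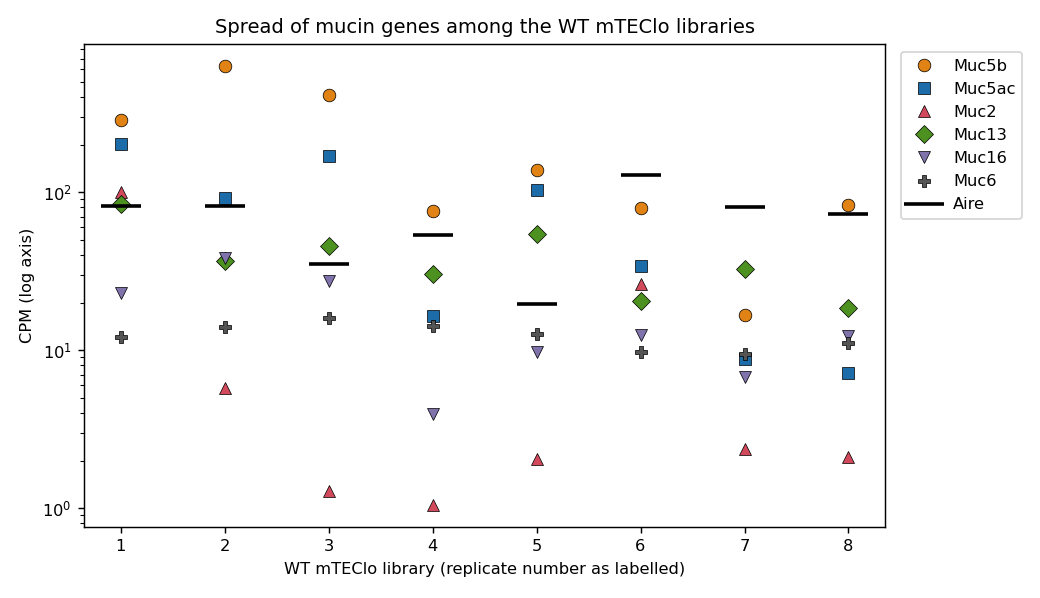
CPM on a log axis of Muc5b, Muc5ac, Muc2, Muc13, Muc16, Muc6 (symbols) and Aire (bars) in each of the 8 WT mTEClo libraries by labelled replicate number. Muc5b spans 16.8 to 629.6 CPM and Muc6 only 9.40 to 16.1 CPM, and replicates have no order.

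Age differs between the genotypes, since 4-week mice are WT only and 6-week mice KO only. Among the 5-week mice, Muc5ac in mTEClo was at 33.9, 8.73 and 7.20 CPM in WT and at 3.25 and 5.64 CPM in KO, and Muc5b was at 79.6, 16.8 and 82.7 CPM in WT and at 95.3 and 68.3 CPM in KO. Muc5ac was thus still lower in both KO libraries, whereas the Muc5b values overlapped. With age as a factor the change of Muc5ac in mTEClo was -3.43 and no longer passed (adjusted p = 0.19), that of Muc5b was -0.36 (adjusted p = 0.86), and that of Muc13 was -2.07 (adjusted p = 0.011). Muc15 went the other way, with -0.63 ± 0.41 (adjusted p = 0.28) in mTEClo without age and -2.24 (adjusted p = 0.006) with it. Its KO mTEClo levels were 0.541 and 1.88 CPM at 5 weeks and 6.85 and 7.04 CPM at 6 weeks, and these pairs also differ in depth class, so age and depth cannot be told apart there. In mTEChi the 8 calls were kept with age as a factor and Muc4 was called lower as well (-0.89, adjusted p = 0.046). Between WT mice of 5 and 4 weeks, in a fit with gate and sex, 1 of the 10 mucin genes was lower at 5 weeks, Muc20 (-0.93 ± 0.29, adjusted p = 0.049), against 3.18% of all tested genes lower and 3.74% higher. Of the alternatives, 18 removed that call (adjusted p 0.049 to 0.42, those at 0.049 under a stricter threshold) while 17 kept it (0.026 to 0.049). Among the 17 are the fits without a KO library, which repeat the same WT fit and could not remove the call. Between the sexes in WT, edgeR called 0 of the 10 mucin genes, against 0.0259% of all genes lower and 0.0155% higher in females. At an unadjusted p under 0.05 there were 2, Muc1 (-0.26 ± 0.10 in females) and Muc5b (-1.26 ± 0.60), both with an adjusted p of 0.9999. The shares given are for the adjusted threshold and are no background for these 2.

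The gates themselves were then compared. In WT, 8 mucin genes were higher and 2 lower in mTEChi than in mTEClo, against 36.7% of all tested genes higher and 33.4% lower. Muc1 had the smallest p, with 134 ± 13.6 CPM (SD, n = 7) in mTEChi and 37.3 ± 7.99 CPM (n = 8) in mTEClo, a log2 difference of 1.84 ± 0.10 (adjusted p = 2.4e-16). Muc6 was higher by 2.74 ± 0.16 (adjusted p = 3.5e-15), Muc2 by 3.10 ± 0.62 (4.33 without WT mTEClo replicate 1, the library with 101 CPM, and 4.37 in libraries of 2000000 counts or more), Muc5ac by 2.12 ± 0.48, Muc16 by 2.04 ± 0.35 and Muc4 by 1.78 ± 0.25. Muc13 (0.95 ± 0.25) and Muc15 (0.85 ± 0.28) were higher by less. No library overlapped between the gates for 5 of these genes (Muc1, Muc4, Muc5ac, Muc6 and Muc16), all higher, which held for 24.8% of all tested genes, and for 0 of those lower (19.5%). Muc5b was the gel-forming mucin with the opposite direction, lower in mTEChi by 1.93 ± 0.56 (adjusted p = 0.0045), with 52.1 ± 18.8 CPM against 215 ± 212 CPM. The call of Muc5b was lost with age as a factor (-1.27, adjusted p = 0.063) and in the libraries of 2000000 counts or more (-1.59, adjusted p = 0.051). Muc20 was also lower, by 0.92 ± 0.32 (adjusted p = 0.013), a call lost in 5 alternatives, age as a factor among them (-0.51, adjusted p = 0.12).

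In KO, Muc6, Muc15 and Muc16 were lower in mTEChi than in mTEClo, the opposite of WT. Of the 10 genes, 3 were higher and 5 lower, against 29.2% of all tested genes higher and 28% lower. No library overlapped for 3 genes with higher levels (Muc1, Muc4 and Muc13) and 3 with lower levels (Muc2, which did not pass, Muc5b and Muc16), against 25% and 22.1% of all tested genes, and these comparisons use the same KO libraries as those above. Muc1 was higher by 2.03 ± 0.13 (adjusted p = 8.0e-14), close to its value in WT. Muc4 (1.17 ± 0.37, adjusted p = 0.0092) and Muc13 (1.32 ± 0.48, adjusted p = 0.023) were higher too. Muc16, higher in mTEChi than in mTEClo in WT, was at least 56.5-fold lower in KO mTEChi, at 0 against 182 counts over the 4 KO mTEClo libraries (adjusted p = 1.7e-04). Muc5b was lower by 4.69 ± 1.17 (adjusted p = 0.0020), from 75.7 ± 50.8 to 2.95 ± 1.11 CPM, both n = 4. Muc6 (-1.003 ± 0.35, adjusted p = 0.014), Muc15 (-1.50 ± 0.58, adjusted p = 0.028) and Muc20 (-1.87 ± 0.61, adjusted p = 0.0097) were lower in KO mTEChi with overlapping ranges. Without KO mTEChi replicate 2 the Muc6 and Muc15 calls were lost and 3 genes remained lower. Without KO mTEChi replicate 3 the Muc4 and Muc13 calls were lost and 1 gene, Muc1, remained higher. Muc2 and Muc5ac did not pass, with 1 against 13 counts for Muc2, a ratio of 11.95 (exact 95% interval 1.79 to 508).

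The make-up of mucin expression was described per exon length, in CPM per kb of merged exons, with the limit that the annotated exons of Muc2 (7.127 kb) come from an incomplete gene model, which bears on its level per kb, on its share and on the gel-forming share. In WT mTEChi the 10 genes summed to 157 CPM per kb, of which Muc1 gave 36.4%, Muc5ac 19.4%, Muc13 16.1% and Muc2 10.4%. In KO mTEChi the sum was 81.5 CPM per kb and Muc1 gave 84.1% of it. Muc1 was therefore the leading mucin in both genotypes, and its own level was 57.3 ± 5.78 in WT and 68.5 ± 8.06 CPM per kb in KO. The neighbouring ranks Muc5ac (30.5 ± 5.26) and Muc13 (25.4 ± 5.82) in WT mTEChi lay within their spread of each other. In WT mTEClo the sum was 61.4 CPM per kb, with Muc1 at 15.9 ± 3.41, Muc5b at 14.3 ± 14.2 and Muc13 at 13.3 ± 6.99, which do not differ beyond their spread. In KO mTEClo it was 30.5 CPM per kb, with Muc1 at 55.1% and Muc5b at 16.6%. Gel-forming mucins made up 35.4 to 41.1% of the family sum in the 7 WT mTEChi libraries and 0.845 to 1.28% in the 4 KO mTEChi libraries. In mTEClo the share was 10.7 to 60.0% in WT and 7.94 to 29.2% in KO, so the genotypes overlapped there. Muc19, also gel-forming, and the membrane mucin Muc3 lie outside the 10 genes and are not part of these sums.

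**Figure D5:**
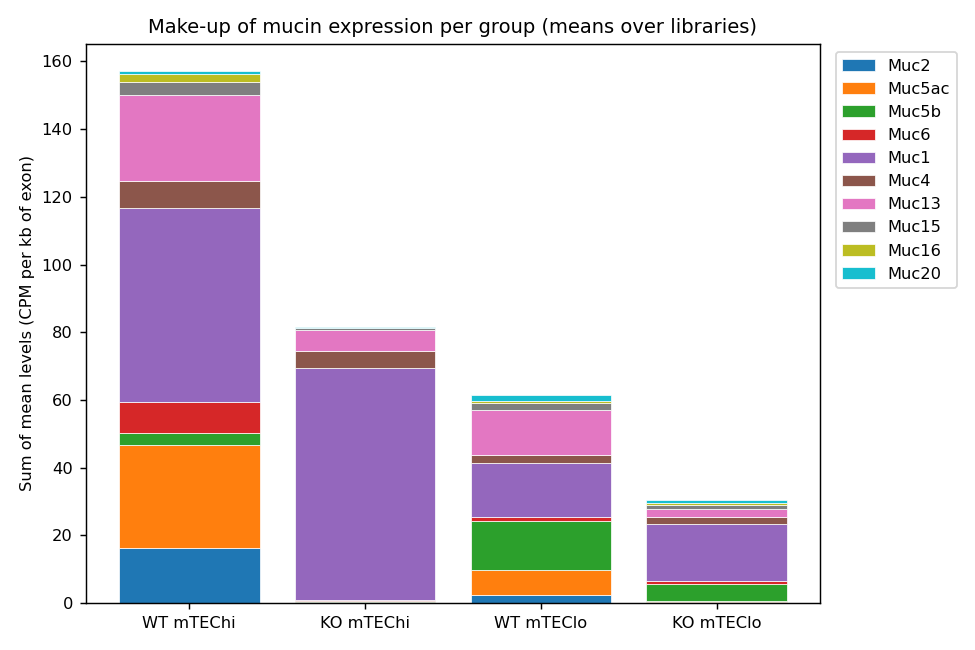
Mean level of each mucin gene in CPM per kb of exon, stacked, for the 4 groups. Muc1 (purple) is the largest part of each bar, and the parts of Muc2, Muc5ac, Muc5b and Muc6 that fill 35.4 to 41.1% of the family sum in WT mTEChi libraries are hardly visible in KO mTEChi.

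The genes whose log2 CPM went most alike with each mucin over the 23 libraries are given as a description, since all points share their libraries and the difference between the 4 groups. For Muc2 they were Slc4a1, the anion exchanger of red cells (r = 0.962), and Nmur2, a neuropeptide receptor (0.952). Muc6 went with the calcium-binding protein gene Scgn (0.963) and the laminin gene Lamc3 (0.948), and Muc16 with the muscle gene Smyd1 (0.9403) and the receptor gene Lgr6 (0.930). Muc1 went with Yipf1 (0.987) and Cybrd1 (0.984), and Muc13 with the liver transporter gene Slc10a5 (0.947) and Hnf4a (0.939), a transcription factor of liver and gut. Muc4 went with Ino80c and Dpp4, Muc5ac with Oas1f and Tspan15, Muc15 with Selenop and Atrn, at 0.911 to 0.941. The weakest partners were those of Muc5b (Rpap3 and Pdk3, both 0.878) and Muc20 (Luc7l2, 0.895, and Mindy3, 0.890). Within the family Muc2 and Muc6 were most alike (0.888).

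Genes that mucus-secreting cells need beside the mucins were counted in lists written from general knowledge. Earlier results of these data were known when the lists were written, so their counts are a description and no independent test. Some list genes passed the filter only through WT mTEChi, among them Zg16, Galnt15, Gata5, Mucl1 and Mucl3. Such genes could hardly be called anything but lower in KO mTEChi, which adds to the lower counts of these lists. Of 24 mucus granule and goblet cell products tested, 20 were lower and 1 higher in KO mTEChi, where 28% of all tested genes were lower and 25.7% higher, with a median log2 change of -2.95 beside -0.01 for all genes. Zg16, a lectin of the granule, was at least 49.0-fold lower, the stomach calpain gene Capn8 fell from 13.4 ± 3.95 to 1.48 ± 0.228 CPM (adjusted p = 8.7e-09), and Creb3l1, a membrane-bound transcription factor of secretory cells, fell from 13.1 ± 2.82 to 1.77 ± 1.24 CPM (adjusted p = 3.6e-08). In mTEClo, where 9.69% of all tested genes were lower and 12% higher, 7 of the 24 were lower and 2 higher, Creb3l1 being one of the latter (14.1 ± 2.66 against 6.19 ± 1.45 CPM, adjusted p = 2.7e-04).

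The enzymes that put sugars on mucins were counted in 2 lists, whose medians moved in opposite directions in KO mTEChi (28% of all genes lower, 25.7% higher). Of 15 tested GalNAc transferases, which attach the first sugar, 7 were lower and 3 higher in KO mTEChi, with a median of -0.55. Galnt14 fell from 18.8 ± 3.94 to 3.57 ± 1.12 CPM (adjusted p = 7.6e-10), Galnt15 was 63.1-fold lower (exact 95% interval 11.1 to 2512, 1 against 117 counts) and Galnt5 fell by a log2 change of -1.48 ± 0.28 (adjusted p = 5.8e-05). Of 21 enzymes that extend or cap the chains, 4 were lower and 7 higher, with a median of 0.20. Gcnt3, which branches the chains of secreted mucins, fell from 16.1 ± 4.98 to 0.980 ± 0.450 CPM (adjusted p = 7.3e-08), whereas B3galt5 rose from 142 ± 18.6 to 437 ± 18.6 CPM (adjusted p = 1.4e-11) and St6galnac3 from 14.5 ± 1.98 to 75.4 ± 4.00 CPM (adjusted p = 2.7e-10). In mTEClo the counts were 2 lower and 1 higher of 15, and 2 lower and 4 higher of 21, against 9.69% of all tested genes lower and 12% higher.

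Of 17 tested transcription factors of mucous and gut epithelium, 7 were lower and 3 higher in KO mTEChi (28% and 25.7% of all genes), with a median of -0.06, near that of all genes. Gata5 and Cdx2 were at 0 in KO mTEChi, at least 19.7-fold and 18.9-fold lower, while Cdx1, also an intestinal factor, rose from 106 ± 26.3 to 206 ± 32.5 CPM (adjusted p = 2.9e-07). In mTEClo 1 of the 17 was lower and 5 were higher (9.69% and 12% of all genes). Of 13 partners of membrane mucins, 1 was lower, the galectin gene Lgals3 (-1.95 ± 0.35, adjusted p = 2.7e-05), and 4 were higher, among them the kinase gene Src (0.74 ± 0.13, adjusted p = 3.4e-05) and the sheddase gene Adam17 (0.50 ± 0.08, adjusted p = 4.4e-06). Their median was 0.07, and in mTEClo 1 was lower and 0 were higher.

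Of 13 other mucins and mucin-like proteins tested, 8 were lower and 1 higher in KO mTEChi (28% and 25.7% of all genes), with a median of -0.92, and 3 were lower and 0 higher in mTEClo (9.69% and 12%). The gel-forming mucin Muc19 went from 27.6 ± 9.20 CPM to a single count (278-fold, exact 95% interval 49.7 to 11006), and Mucl1 from 7.89 ± 2.37 to 0.506 ± 0.223 CPM. Mucl2 was 133-fold lower (exact 95% interval 36.7 to 1102) and Mucl3 85.2-fold (15.1 to 3385). The membrane mucin Muc3 kept a lower level, 17.1 ± 2.42 against 41.7 ± 3.54 CPM (log2 change -1.35 ± 0.34, adjusted p = 0.0016), and Madcam1, Mcam and Cd164 fell by 0.92, 1.19 and 0.60 on the log2 scale. Parm1 was the one that rose (0.37 ± 0.09, adjusted p = 8.9e-04).

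Markers of other cells were measured beside these results. Their counts stand against 28% of all tested genes lower and 25.7% higher in KO mTEChi, and 9.69% lower and 12% higher in KO mTEClo. Of the 8 tested stomach epithelium markers, 6 were lower and 0 higher in KO mTEChi, with Gkn1 and Gkn2 at 0 and, among genes named after their values were seen, the pepsinogen gene Pgc from 80.9 ± 18.8 to 1.04 ± 0.706 CPM and the acid pump subunit Atp4a (73.9 ± 7.55 and 65.3 ± 13.4 CPM) not passing (adjusted p = 0.15). Gkn1 and Gkn2 (means of 7.37 and 6.80 CPM in WT mTEChi) passed the filter through that group alone, as did the thymocyte marker Cd3g (3.81 CPM). These markers could hardly be called anything but lower in KO mTEChi. Summed thymocyte markers (12 of 12 with counts) were at 70.1 to 88.4 CPM in WT mTEChi and 41.4 to 53.9 CPM in KO mTEChi, with 5 of 6 tested markers lower. Summed fibroblast markers (10 of 10) were at 363 to 553 and 284 to 310.2 CPM, with 6 of 10 lower and 1, Dcn, higher. Dendritic cell and macrophage markers (12 of 12) summed to 400 to 497 CPM in WT and 459 to 516 CPM in KO, with 7 of 11 tested lower and 2 higher. B cell markers (8 of 8) were at 286 to 327 and 375 to 437 CPM, endothelial markers (9 of 9) at 184 to 281 and 285 to 337 CPM, and cortical epithelial markers (8 of 8) at 776 to 890.2 and 1036 to 1154 CPM. Within these 3 lists the markers moved both ways, with 2 lower and 3 higher of 7 tested B cell markers, 2 lower and 2 higher of 6 endothelial ones (Plvap by -4.88 and Cdh5 by -3.83 on the log2 scale) and 3 lower and 3 higher of 8 cortical ones (Enpep by -3.93). No marker of these lists was at 0 over the libraries of either mTEChi group except the stomach markers Gkn1, Gkn2 and Gkn3 in KO. In mTEClo, where Muc5ac and Muc13 were lower in KO, summed cortical epithelial markers were at 518 to 643 CPM in WT and 772 to 943 CPM in KO, with 6 of 8 markers higher and 0 lower. Dendritic cell and macrophage markers there summed to 128 to 179 CPM in WT and 237 to 294 CPM in KO, with 3 of 11 tested markers higher and 1 lower, and Clec9a was at 0 in KO. The other sums in WT and KO mTEClo were 17.8 to 28.5 and 15.7 to 24.0 CPM for thymocytes (Cd2 at 0 in WT, Ptcra in KO), 113 to 131 and 132 to 189 CPM for B cells, 971 to 1324 and 858 to 992 CPM for fibroblasts, and 135 to 184 and 146 to 207 CPM for endothelium (Cldn5 at 0 in WT, Cdh5 in KO). The part of such cells in the mucin results was not tested.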

How the data were processed

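Total RNA of 23 sorted cell libraries was sequenced per the labels' protocols (Tn5 tagmentation of cDNA primed with not-so-random primers plus oligo dT, which keeps no strand). The authors deposited counts per Ensembl gene (53402 identifiers, no other columns). Per the submitters' processing notes, the tools included HTSeq 0.11.2, STAR 2.7.3a, edgeR, fastp 0.20.0, Picard 2.21.1 and SAMtools 1.9, with mm10 and GRCm38 as builds, without a role or order. A second table deposited by the authors holds normalized values (unit signal, 20236 genes), each the count divided by 1 factor per library, and served as an alternative only.

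Counts were tested with edgeR 4.0.16 (R 4.3.3): filterByExpr by group with a minimum count of 10 (19310 genes kept), TMM factors, robust quasi-likelihood fits over all 23 libraries with terms for group and sex, and Benjamini-Hochberg adjustment over all genes. WT ages were compared in a fit of the 15 WT libraries with gate, sex and age. A gene passed at an adjusted p under 0.05. SE is the log2 change divided by the square root of F. CPM were computed from totals of tested genes and TMM factors. Fitted changes of genes near 0 counts are no bounds: 0 counts were replaced by 3 counts over the group, and with 1 to 3 counts an exact 95% interval is given; both cover counting error only. Named genes are the 10 mucins, the 3 of each list with the smallest p in KO against WT mTEChi, passing mucin-like genes, the 2 most correlated genes (log2 CPM, prior count 2) and protein-coding neighbours within 200 kb. The members and lists were chosen with earlier results of these data known. The procedure was tested on simulated counts for KO against WT mTEChi. It recovered 58 of 100 genes changed 2-fold and 95 of 100 changed 4-fold, with 9 false calls among 19310 genes. Alternatives were thresholds, other scaling factors, totals only, filters, DESeq2 1.42.0, limma 3.58.1 on log2(signal + 1), other covariates, library subsets, a replicate block and each library left out. Identical or duplicate libraries were looked for (0 pairs). Gene models came from GENCODE vM21 and promoters from RefSeq.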

Additional observations from a re-analysis of the deposited data

Results flagged for a closer look

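Of 39 sets of values of a mucin gene in 1 group, 5 had a library apart from the rest by Dixon's criterion, where chance gives about 1 in 20. Muc2 in WT mTEClo stood at 101 CPM in replicate 1, with 26.2 CPM in the next library. In KO mTEChi the Muc2 level of 0.342 CPM in replicate 3 is a single count, with 0 in the others. In WT mTEChi, Muc5b stood at 92.4 CPM in replicate 2 (next 52.1 CPM), Muc15 at 20.4 CPM in replicate 1 (next 14.3 CPM) and Muc20 at 7.80 CPM in replicate 2 (next 3.93 CPM). WT mTEChi replicates 1 and 2 and WT mTEClo replicate 1 are among the libraries under 2000000 counts.

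The KO effect in mTEChi minus that in mTEClo, tested as an interaction in edgeR, differed for Muc6 (log2 -3.74, adjusted p = 3.2e-08), Muc15 (log2 -2.34, adjusted p = 0.0079) and Muc16 (log2 -10.60, adjusted p = 4.9e-05). The KO effect in mTEChi was the more negative for all 3, while in mTEClo Muc16 (log2 0.02) and Muc15 (log2 -0.63) did not pass.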

How the results depend on the processing

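Of 2010 values of a mucin gene under an alternative, 1868 kept their direction and their side of the threshold, 68 lost a call, 36 gained one and 38 changed sign. The 8 calls in KO against WT mTEChi were kept wherever the gene had a value. Muc4 was called lower as well under several alternatives, among them age as a factor and the replicate block, with 9 genes lower in each of these. Muc20 was not tested with a minimum count of 30, and Muc2 had no adjusted p under DESeq2.

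In KO against WT mTEClo, Muc1 stood at 0.0025 with RLE factors, 0.018 with library totals only, 0.0125 with a minimum count of 30, 0.0058 with DESeq2, 0.091 without the sex term, 0.11 with age, 0.036 in libraries of 2000000 counts or more and 0.0215 with the replicate block, and between -0.092 and 0.072 with 1 library left out. Muc16 stood at -0.0755 with DESeq2, -0.21 in males, -0.23 with the groups of the comparison only and -0.035 with the replicate block, and between -0.37 and 0.29 with 1 library left out. In 5-week males, where WT mTEClo is 1 library, Muc4 was at 1.12 (adjusted p = 0.009), Muc5b at 0.0397 and Muc6 at 0.088. Muc4 lay between -0.29 and 0.20 with 1 library left out. Muc5ac in mTEChi against mTEClo of KO was at 0.0404 with depth class, 0.20 in libraries of 2000000 counts or more and between -0.4076 and 0.0853 with 1 library left out. Muc13 had a difference of KO effects of -0.051 in libraries of 2000000 counts or more.

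Counts of mucin genes called moved as follows; the cause was not tested. In 5-week males 1 gene was higher in KO in each gate, and 6 had a more negative KO effect in mTEChi, as in the authors' normalized table (6), which gave 5 lower in KO mTEClo. In WT, the 2 genes lower in mTEChi became 1 at an adjusted p under 0.01, a change over 2-fold, a minimum count of 30, 2000000 counts or more, males and 5-week males, and 0 with age. In KO, 5 lower became 3 at an adjusted p under 0.01 and with the groups of the comparison only (3 to 5 with 1 library left out), and 3 higher became 1 with 2000000 counts or more (1 to 3). The 1 gene lower at 5 weeks became 0 at an adjusted p under 0.01, a change over 2-fold, library totals only, a minimum count of 30, depth class, 2000000 counts or more, males and the replicate block (0 to 2 with 1 library left out).

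Same-numbered libraries correlated in their deviations at -0.193 to 0.202, and WT and KO of 1 number differ in age. Between the gates, same-numbered KO libraries share age and sex and correlated at 0.059 to 0.137. WT replicates 1, 2 and 6 also share both and correlated at 0.1, 0.104 and 0.115. WT replicates 3, 4, 5 and 7 differ in age or sex and correlated at -0.193 to 0.202. Whether same-numbered libraries of the gates came from the same mice was not tested, and the main fit treats them as unpaired. With the replicate block, the Muc6 call in KO mTEClo (-0.73, adjusted p = 0.056) and the Muc15 call between the gates in KO (-1.45, adjusted p = 0.067) were lost and Muc4 in KO mTEChi was gained (-1.01, adjusted p = 0.015).

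Among all genes, calls in KO against WT mTEChi were 52.1% lower, and 65.4% with library totals only, which moved the median of all genes to -0.17 on the log2 scale; for the difference of KO effects the shares were 56.3% and 77.8% (median -0.20). A change over 2-fold cut the called genes from 10366 to 4492 in mTEChi and from 4186 to 1506 in mTEClo, from 13541 to 6937 and from 11039 to 6779 between the gates in WT and KO, and from 1189 to 45 between ages (1851 without WT mTEClo replicate 1); the replicate block gave 5 genes between the sexes in place of 8; 5-week males cut the difference of KO effects from 4792 to 2478. Depth limits Muc20, Muc15 and Muc2, which have few counts in KO.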
